A study of Mus musculus with 6 samples.

Results

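Transcripts of 44 genes were followed that encode subunits of the BAF chromatin remodellers, of the NuRD complex with its partner LSD1, and of the enhancer coactivators around the MLL methyltransferases and p300. They were chosen by name, and all 44 were found by symbol among the 51826 gene rows of the count table through GENCODE M21 on GRCm38, the mm10 assembly. RNA came from V6.5, a wild-type mouse embryonic stem cell line, in 2 states with 3 libraries each. Epiblast-like cells (EpiLC) were at day 3 after removal of LIF and of the 2i inhibitors of GSK3 and MEK, and embryonic stem cells (ESC) were kept in both. Both states shared a Knockout DMEM medium with 15% serum. All libraries derive from this 1 line, and no label says that they came from separate cultures, so p-values measure the spread between these libraries, which may be technical.

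Library totals ran from 9710410 to 11425054 counts in EpiLC and from 11499687 to 22879812 counts in ESC. The labels fitted the markers: of 8 naive genes 8 were lower in EpiLC, and of 8 formative epiblast genes 7 were higher, with Klf4 at 1.97 ± 0.522 CPM in EpiLC and 191 ± 14.8 CPM in ESC and Fgf5 at 39.2 ± 3.45 CPM in EpiLC and 0.0982 ± 0.104 CPM in ESC. Values here and below are CPM, the share of a gene in its library total, scaled by TMM, as mean ± SD over 3 libraries. ESC replicate 3 stood apart from the other ESC libraries: in a chi-square comparison of counts over genes, the statistic per degree of freedom was 25.7 and 26.1 against replicates 1 and 2, which gave 2.58 between themselves. The EpiLC pairs lay between 2.17 and 4.11, so no pair agreed within sampling noise. Where leaving out ESC replicate 3 changed the call of a member, the result without it is also given. In bulk RNA, fewer cells of a type and less RNA per cell cannot be told apart.

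BAF complexes use an ATPase to slide or evict nucleosomes, and their other subunits come as alternative paralogs that are exchanged between cell types. In mouse embryonic stem cells the assembly built on BRG1 (Smarca4), BAF155 (Smarcc1) and BAF250A (Arid1a) is known as esBAF, while neurons take up paralogs such as BAF53B. NuRD joins a remodelling ATPase to histone deacetylases and restrains naive genes, and LSD1 removes methyl groups from histone H3 lysine 4. The MLL3 and MLL4 complexes place monomethylation of that residue on enhancers, and p300 and CBP acetylate histones there.

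The share of subunit genes called was close to that of all genes, and 9 of them moved by 2-fold or more, in both directions. Of the 44 genes 42 passed the filter on low counts and entered edgeR's quasi-likelihood test. Of these, 16 were higher in EpiLC, 12 lower and 14 not called at an adjusted p under 0.05. Thus 66.7% of the tested members were called, beside 64.6% of all 14996 genes tested, which is near the background. The background was 65.6% among genes with a mean of at least 10 CPM, 61.1% with DESeq2 and 64.8% with limma-voom, each of which also called 28 members. Without ESC replicate 3 edgeR called 33 of the 42 members (78.6%), 18 higher and 15 lower, beside 76.7% of all genes. Among all genes 32.0% were called higher and 32.6% lower. At least a 2-fold called difference was reached by 6 members upward and 3 downward, beside 17.0% and 12.4% of all genes, and 18.4% in either direction among genes of at least 10 CPM. In 30 of the 42 the ranges of the states did not overlap, beside 70.2% of all genes. For 30 members (71.4%) the 95% interval of the fold change stayed under 2-fold either way, against 54.5% of all genes and 72.1% of the 9503 genes with a mean of at least 10 CPM. The median log2 fold change was 0.033 over the members and 0.0096 over all genes. The 2 members with too few counts were the neuronal BAF genes Dpf3 and Actl6b.

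**Figure D1:**
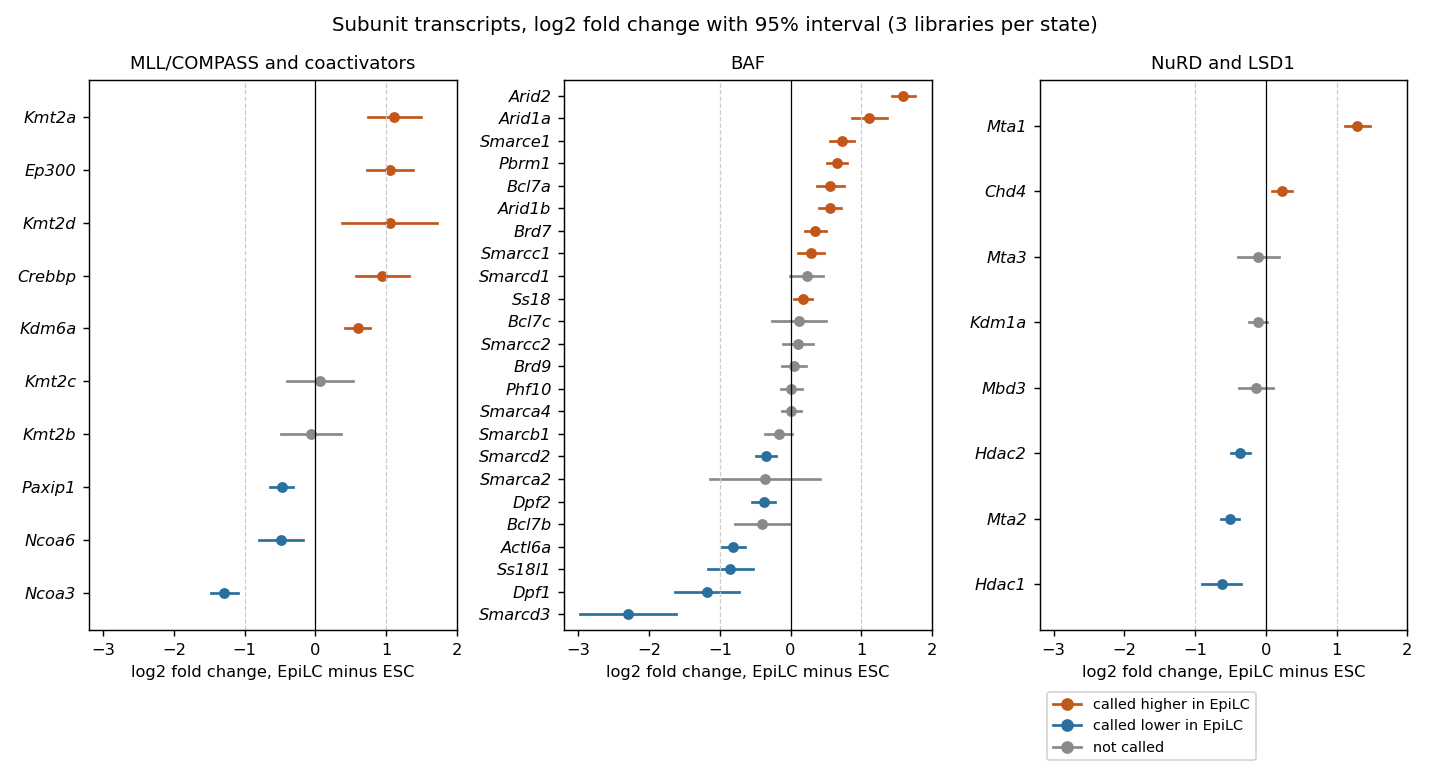
Log2 fold change (EpiLC minus ESC, x axis) of each tested subunit transcript, one row per gene, in 3 panels by complex. Points are edgeR estimates from 3 libraries per state, lines are 95% intervals and colour gives the call. Arid2, Mta1, Kmt2a, Arid1a, Ep300 and Kmt2d lie at or beyond 1, and Ncoa3, Dpf1 and Smarcd3 beyond -1.

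Among the MLL methyltransferases, 1 paralog of each pair rose. Of the 10 genes of the MLL and coactivator group 5 were higher, 3 lower and 2 uncalled. Thus 80.0% were called, beside 64.6% of all genes tested, with 32.0% of all genes higher and 32.6% lower. The median difference of the group was 0.33 on the log2 scale (0.51 without ESC replicate 3). Kmt2a, which encodes MLL1, a methyltransferase of histone H3 lysine 4 at promoters (ENSMUSG00000002028, chromosome 9, 44803355 to 44881296), had 140.0, 126 and 139 CPM in EpiLC replicates 1 to 3, against 58.2, 49.2 and 80.0 CPM in ESC replicates 1 to 3. It rose 2.17-fold (log2 fold change 1.12 with an SE of 0.16, edgeR adjusted p = 0.000414), and the groups did not overlap. Its paralog Kmt2b, which encodes MLL2, had 83.9, 83.3 and 84.0 CPM in EpiLC replicates 1 to 3, against 70.5, 73.8 and 119 CPM in ESC replicates 1 to 3. ESC replicate 3 was the highest of the 6 libraries for Kmt2b, the groups overlapped, and the gene was not called (log2 fold change -0.060 with an SE of 0.18, edgeR adjusted p = 0.789). Without that library Kmt2b was called higher, with a log2 fold change of 0.20 (adjusted p = 0.0032 by edgeR), still well below the 1.32 of Kmt2a.

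The enhancer methyltransferases split in the same manner. Kmt2d, which encodes MLL4 (ENSMUSG00000048154, chromosome 15, 98831669 to 98871204), had 163, 148 and 154 CPM in EpiLC replicates 1 to 3, against 52.7, 53.5 and 121 CPM in ESC replicates 1 to 3. The EpiLC libraries lay above all ESC libraries, but ESC replicate 3 was more than 2-fold above the other ESC libraries. Kmt2d rose 2.07-fold (log2 fold change 1.05 with an SE of 0.29, edgeR adjusted p = 0.0135), and its log2 fold change was 1.53 without ESC replicate 3. Kmt2c, which encodes MLL3, had 102, 99.6 and 106 CPM in EpiLC replicates 1 to 3, against 80.2, 78.0 and 138 CPM in ESC replicates 1 to 3 and was not called (log2 fold change 0.063, SE 0.20, 95% interval -0.40 to 0.53). Without ESC replicate 3 it was called higher, with a log2 fold change of 0.36 (adjusted p = 1.96e-05 by edgeR).

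Within each library the ratio of the paralogs does not depend on scaling. The log2 count ratio of Kmt2a to Kmt2b was 0.69 ± 0.082 in EpiLC and -0.48 ± 0.17 in ESC, a difference of 1.16. That of Kmt2c to Kmt2d was -0.60 ± 0.076 in EpiLC and 0.45 ± 0.22 in ESC, a difference of -1.04. Neither ratio overlapped between the states, and each had the smallest two-sided p that 3 against 3 libraries allow in an exact permutation test, 0.1 (0.147 adjusted over the 22 paralog pairs compared). Without ESC replicate 3 the differences were 1.12 and -1.17. Per kilobase of annotated exon, Kmt2a made up 48.1 ± 1.42% in EpiLC and 29.3 ± 2.52% in ESC of the MLL1 and MLL2 transcripts. Kmt2d made up 60.6 ± 1.25% in EpiLC and 42.8 ± 3.80% in ESC of the MLL3 and MLL4 transcripts.

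Other subunits of the MLL3 and MLL4 complexes went both ways. Kdm6a, the X-linked gene of UTX, which removes methyl groups from histone H3 lysine 27, was at 102 ± 4.28 CPM in EpiLC and 67.5 ± 5.47 CPM in ESC and rose 1.52-fold (log2 fold change 0.60 with an SE of 0.078, edgeR adjusted p = 0.000228). Paxip1, which encodes the adaptor PTIP, was at 78.7 ± 2.58 CPM in EpiLC and 109.5 ± 7.71 CPM in ESC and fell 1.39-fold (log2 fold change -0.48, SE 0.072). Ncoa6, a nuclear receptor coactivator held in the same complexes, was at 20.0 ± 0.302 CPM in EpiLC and 28.1 ± 5.17 CPM in ESC and fell 1.40-fold (log2 fold change -0.48, SE 0.13). The call of Ncoa6 was lost without EpiLC replicate 2 (adjusted p = 0.0507 by edgeR, the highest of the alternatives, whose lowest was 0.000961).

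Both histone acetyltransferases of enhancers rose, and in near-equal measure. Ep300, which encodes p300 (ENSMUSG00000055024, chromosome 15, 81585351 to 81652077), had 138, 121 and 124 CPM in EpiLC replicates 1 to 3, against 56.0, 51.8 and 76.4 CPM in ESC replicates 1 to 3. Its groups did not overlap, and it rose 2.09-fold (log2 fold change 1.06 with an SE of 0.14, edgeR adjusted p = 0.000254). Crebbp, which encodes the paralog CBP, had 108, 103 and 120.4 CPM in EpiLC replicates 1 to 3, against 51.1, 47.0 and 74.4 CPM in ESC replicates 1 to 3 and rose 1.93-fold (log2 fold change 0.95 with an SE of 0.16, edgeR adjusted p = 0.00112). Between Ep300 and Crebbp the log2 count ratio was 0.21 ± 0.16 in EpiLC and 0.10 ± 0.057 in ESC, a difference of 0.11, the groups overlapped, and the exact permutation p was 0.3. Per kilobase of exon Ep300 held 52.3 ± 2.70% in EpiLC and 50.5 ± 0.995% in ESC of the pair. Their summed level was 17.1 ± 0.84 CPM per kb in EpiLC and 8.55 ± 2.01 CPM per kb in ESC.

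Ncoa3, the steroid receptor coactivator SRC-3, known in mouse embryonic stem cells as a partner of the naive factor ESRRB, moved the other way (ENSMUSG00000027678, chromosome 2, 165992636 to 166073242). It had 97.1, 91.2 and 94.3 CPM in EpiLC replicates 1 to 3, against 228, 208 and 254 CPM in ESC replicates 1 to 3. Every EpiLC library lay below every ESC library, and Ncoa3 fell 2.44-fold (log2 fold change -1.29 with an SE of 0.083, edgeR adjusted p = 4.42e-06). Esrrb itself, named for this link and outside the naming rule, was at 7.62 ± 0.759 CPM in EpiLC and 469.8 ± 89.2 CPM in ESC.

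**Figure D2:**
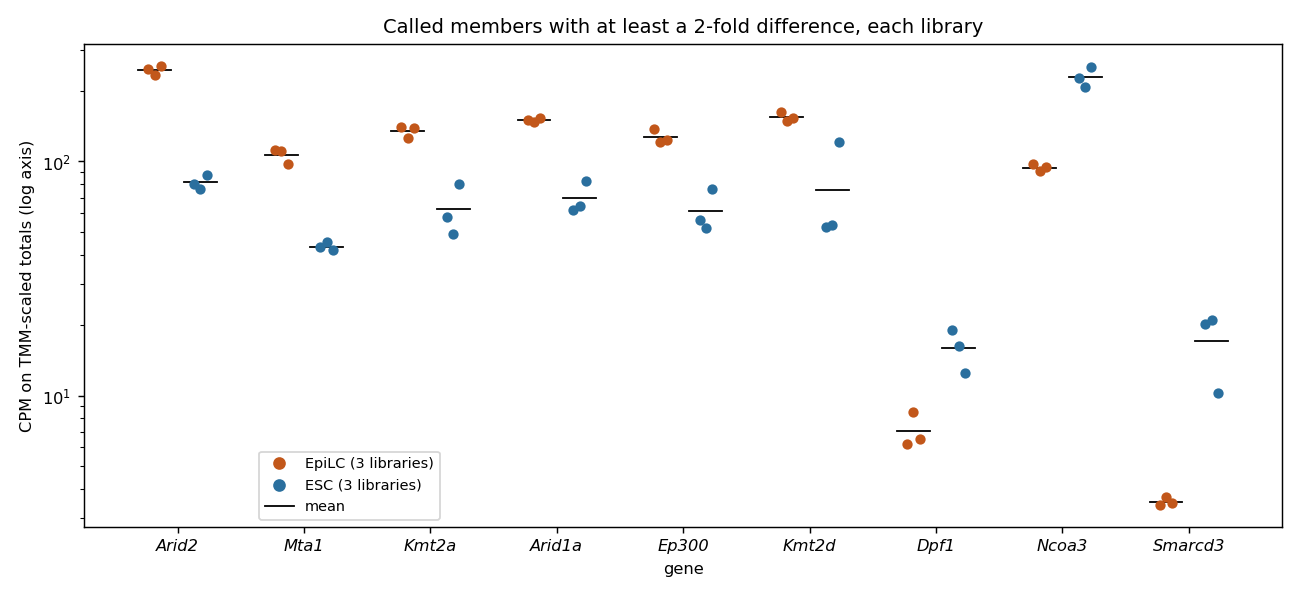
Level of the called members with at least a 2-fold difference, in CPM on TMM-scaled totals (log axis), with a point for each library and a bar at the mean, EpiLC left of ESC. In the 9 genes no EpiLC library overlaps an ESC library, and ESC replicate 3 is the highest ESC library for Kmt2d (121 CPM) and the lowest for Smarcd3 (10.3 CPM).

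The ratio of the ATPase paralogs and that of the scaffold paralogs of BAF overlapped between the states, while the scaffold gene Smarcc1 rose. Of the 24 BAF genes tested 9 were higher, 6 lower and 9 uncalled. The called share, 62.5%, was near the 64.6% of all genes tested. The median difference of the BAF genes was 0.077 on the log2 scale. Smarca4, the ATPase BRG1, was at 450.5 ± 11.8 CPM in EpiLC and 447 ± 20.7 CPM in ESC (log2 fold change 0.011, 95% interval -0.13 to 0.15). Its paralog Smarca2, the ATPase BRM, was at 5.68 ± 0.591 CPM in EpiLC and 7.67 ± 3.92 CPM in ESC and was not called (log2 fold change -0.36, SE 0.34, 95% interval -1.14 to 0.42). Smarca2 had 5.52, 6.33 and 5.18 CPM in EpiLC against 5.50, 5.32 and 12.2 CPM in ESC, with ESC replicate 3 alone above the rest. Per kilobase of exon Smarca4 took 99.4 ± 0.0693% in EpiLC and 99.2 ± 0.408% in ESC of the pair. The difference in their log2 count ratio, 0.33, became -0.073 without ESC replicate 3.

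Smarcc1, the scaffold BAF155, was at 252 ± 12.5 CPM in EpiLC and 206 ± 17.6 CPM in ESC and rose 1.22-fold (log2 fold change 0.29 with an SE of 0.078, edgeR adjusted p = 0.0109). Its states did not overlap, but its call was lost without ESC replicate 2, EpiLC replicate 2 or EpiLC replicate 3, or with no filter on low counts (adjusted p = 4.88e-05 to 0.0547 across alternatives). The paralog BAF170, Smarcc2, stood at 39.3 ± 3.67 CPM in EpiLC and 36.7 ± 1.78 CPM in ESC, was not called (log2 fold change 0.10, SE 0.092) and held 18.1 ± 1.95% in EpiLC and 20.1 ± 0.887% in ESC of the pair per kilobase. Smarce1, the HMG-box subunit BAF57, rose 1.66-fold and was at 49.5 ± 1.24 CPM in EpiLC and 29.8 ± 1.72 CPM in ESC (log2 fold change 0.73, SE 0.077). Its counts are uncertain, since the annotation lists a pseudogene, Smarce1-ps1. Only pseudogenes named after a member were searched, so copies of any member under other names were not checked. Smarcb1, the tumour suppressor SNF5, was at 119.7 ± 3.20 CPM in EpiLC and 134 ± 14.5 CPM in ESC and was not called, but without ESC replicate 3 it was called lower, with a log2 fold change of -0.27 (adjusted p = 0.000148 by edgeR).

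The ARID subunits, which set the type of BAF assembly, rose together. Arid2, the ARID subunit of the polybromo form PBAF (ENSMUSG00000033237, chromosome 15, 96287518 to 96404992), had 248, 234 and 256 CPM in EpiLC replicates 1 to 3, against 80.4, 76.5 and 87.5 CPM in ESC replicates 1 to 3. The states were well apart, and Arid2 rose 3.02-fold (log2 fold change 1.60 with an SE of 0.073, edgeR adjusted p = 8.30e-07), the largest increase among the 42 tested members. Arid1a, the BAF250A subunit of canonical BAF (ENSMUSG00000007880, chromosome 4, 133679008 to 133756769), had 150.4, 148 and 154 CPM in EpiLC replicates 1 to 3, against 62.0, 64.8 and 82.2 CPM in ESC replicates 1 to 3 and rose 2.17-fold (log2 fold change 1.12 with an SE of 0.11, edgeR adjusted p = 4.00e-05). Its paralog Arid1b had 66.8, 71.4 and 70.2 CPM in EpiLC against 46.0, 47.3 and 48.4 CPM in ESC and rose 1.47-fold (log2 fold change 0.56, SE 0.066). In none of the 3 genes did the states overlap. Arid1a gained on Arid1b: their log2 count ratio was 1.12 ± 0.064 in EpiLC and 0.55 ± 0.19 in ESC, a difference of 0.57, with no overlap (exact permutation p = 0.1). Arid1a held 70.4 ± 0.933% in EpiLC and 61.6 ± 3.02% in ESC of the BAF250 transcripts per kilobase, and the summed level of both was 18.6 ± 0.308 CPM per kb in EpiLC and 9.82 ± 1.04 CPM per kb in ESC.

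Of the other PBAF subunits, Pbrm1, which encodes the polybromo protein BAF180, was at 309.7 ± 4.51 CPM in EpiLC and 196 ± 11.5 CPM in ESC and rose 1.58-fold (log2 fold change 0.66, SE 0.063). Brd7, its bromodomain subunit, had 144, 146 and 150.3 CPM in EpiLC against 109, 114 and 122 CPM in ESC and rose 1.28-fold (log2 fold change 0.35, SE 0.065). Phf10, which encodes BAF45A, was at 119 ± 2.60 CPM in EpiLC and 118 ± 7.18 CPM in ESC and was not called (95% interval -0.14 to 0.17), though 9.57% of its exon length lies opposite exons of 1600012H06Rik. Brd9, the bromodomain paralog that marks the non-canonical form ncBAF, had 36.8, 35.3 and 36.9 CPM in EpiLC against 34.6, 36.2 and 34.2 CPM in ESC and was not called (log2 fold change 0.053, SE 0.073, 95% interval -0.11 to 0.22). For Brd9 over Brd7 the log2 count ratio was -2.01 ± 0.044 in EpiLC and -1.71 ± 0.10 in ESC, a difference of -0.30, with no overlap (exact permutation p = 0.1).

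The BAF60 paralogs separated furthest. Smarcd3, which encodes BAF60C, known for its part in heart and muscle development (ENSMUSG00000028949, chromosome 5, 24590818 to 24624411), had 3.41, 3.68 and 3.48 CPM in EpiLC replicates 1 to 3, against 20.1, 20.9 and 10.3 CPM in ESC replicates 1 to 3. Every EpiLC library was below every ESC library, and ESC replicate 3 was the lowest of its group. Smarcd3 fell 4.94-fold (log2 fold change -2.30 with an SE of 0.29, edgeR adjusted p = 0.000209), the largest decrease among the tested members, and by 2.55 on the log2 scale without ESC replicate 3. Exons of Chpf2 lie opposite 48.2% of its exon length, so reads of the pair may be mixed if strand was not used. Chpf2 was at 28.8 ± 0.524 CPM in EpiLC and 19.1 ± 1.92 CPM in ESC, the opposite direction (log2 fold change 0.59, adjusted p = 0.000965 by edgeR). Of 10 mesoderm and muscle markers 5 were tested, 4 were higher and 1 was not called (80.0% called, beside 64.6% of all genes tested). The summed level of the 10 markers was 26.1 to 35.2 CPM in EpiLC and 11.3 to 23.6 CPM in ESC. The part of these markers in the value of Smarcd3 was not tested.

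Smarcd2, or BAF60B, had 69.2, 72.6 and 73.9 CPM in EpiLC against 92.9, 92.3 and 89.2 CPM in ESC and fell 1.27-fold (log2 fold change -0.35, SE 0.062). Smarcd1, or BAF60A, had 99.5, 95.5 and 100.4 CPM in EpiLC against 93.7, 87.2 and 70.9 CPM in ESC and was not called (log2 fold change 0.23 with an SE of 0.10, edgeR adjusted p = 0.0809, 0.0204 to 0.385 across alternatives). Its states did not overlap, and it passed with upper quartile scaling, with library totals and without ESC replicate 1. The log2 count ratio of Smarcd1 to Smarcd3 was 4.79 ± 0.090 in EpiLC and 2.35 ± 0.38 in ESC, a difference of 2.44, the largest shift of the 22 pairs (exact permutation p = 0.1). Per kilobase Smarcd1 held 54.1 ± 1.13% in EpiLC and 41.8 ± 2.12% in ESC of the BAF60 transcripts, Smarcd2 held 44.3 ± 1.08% in EpiLC and 51.5 ± 3.81% in ESC, and Smarcd3 held 1.52 ± 0.073% in EpiLC and 6.62 ± 1.85% in ESC.

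The promoters of the pair that shifted most are shown as the 250 bases before the RefSeq start on GRCm38.p6, 5′ to 3′, for Smarcd1 (chr15:99702037-99702286, plus strand) and Smarcd3 (chr5:24602003-24602252, minus strand). Capitals mark GC boxes, the letters GGGCGG searched on both strands, where overlapping copies are merged. The RefSeq start of Smarcd3 lies inside the GENCODE span of the gene, which begins further upstream. The GENCODE span of Smarcd1 begins at 99702129, within its window, so the part with the marked GC box lies inside the annotated gene.
Smarcd1: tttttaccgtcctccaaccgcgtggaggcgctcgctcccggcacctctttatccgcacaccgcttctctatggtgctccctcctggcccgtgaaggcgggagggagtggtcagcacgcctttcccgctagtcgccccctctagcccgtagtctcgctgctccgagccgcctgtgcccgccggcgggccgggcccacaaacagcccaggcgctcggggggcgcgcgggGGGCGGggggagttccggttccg
Smarcd3: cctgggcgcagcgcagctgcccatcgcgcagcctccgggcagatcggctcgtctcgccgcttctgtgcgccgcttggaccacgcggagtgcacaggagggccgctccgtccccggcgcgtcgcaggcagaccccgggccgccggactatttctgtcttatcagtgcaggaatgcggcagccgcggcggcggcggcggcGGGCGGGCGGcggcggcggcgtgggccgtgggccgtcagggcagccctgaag
Both are rich in CpG, with 29 of these dinucleotides in the Smarcd1 window and 38 in the Smarcd3 window, at 71.2% and 76.0% GC. Over all members the table held a window for 36 genes, with medians of 25 CpG and 67.6% GC. Over all 32851 RefSeq promoter windows of the same length the medians were 6 CpG and 52.4% GC. Those windows were not restricted to expressed genes and some genes have several, while each member entered once, so the sets are not matched. The GC box was present in 30 of the 36 member windows (83.3%) and in 32.7% of all windows. Windows were not listed for Arid2, Bcl7a, Hdac1, Kmt2b, Mta3, Ncoa3, Smarce1 and Ss18. A match of letters is a description and not a bound site.

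The paralogs known from neuronal BAF were at a few counts or lower in EpiLC. Actl6b, which encodes neuronal BAF53B, had 2 counts over the 3 EpiLC libraries and 3 counts over the 3 ESC libraries. Dpf3, which encodes BAF45C, had 9 counts in EpiLC and 11 in ESC. Dpf1, which encodes BAF45B (ENSMUSG00000030584, chromosome 7, 29303951 to 29318243), had 6.22, 8.47 and 6.52 CPM in EpiLC replicates 1 to 3, against 19.1, 16.3 and 12.5 CPM in ESC replicates 1 to 3. It fell 2.27-fold with no overlap (log2 fold change -1.18 with an SE of 0.19, edgeR adjusted p = 0.000848). Ss18l1, which encodes the calcium-responsive transactivator CREST, had 7.83, 9.41 and 8.30 CPM in EpiLC against 16.8, 13.6 and 16.0 CPM in ESC and fell 1.80-fold (log2 fold change -0.85, SE 0.14). Of 12 neural marker genes 7 were higher in EpiLC, 1 lower and 2 not called, with 2 not tested. Of the tested neural markers 80.0% were called, beside 64.6% of all genes tested. Their summed level ran from 518 to 566 CPM in EpiLC and from 330.1 to 428 CPM in ESC. Most of the EpiLC sum was Nes, at 352 ± 30.2 CPM in EpiLC and 43.2 ± 21.2 CPM in ESC, and most of the ESC sum was Stmn2, at 84.1 ± 5.84 CPM in EpiLC and 281 ± 77.3 CPM in ESC. Dcx had 0 counts in each ESC library and 0.963 ± 0.235 CPM in EpiLC. Stmn2 and Dcx are named after their values were seen. The part of these markers in the BAF values was not tested.

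Their broadly expressed counterparts behaved less evenly. Actl6a, which encodes the progenitor subunit BAF53A, was at 170.4 ± 7.50 CPM in EpiLC and 298 ± 21.6 CPM in ESC and fell 1.75-fold (log2 fold change -0.81 with an SE of 0.072, edgeR adjusted p = 2.75e-05). Mrpl47 exons lie opposite 11.6% of its exon length, and Mrpl47 also fell (log2 fold change -0.43). Dpf2, which encodes BAF45D, had 39.2, 40.9 and 40.4 CPM in EpiLC against 50.3, 52.9 and 53.9 CPM in ESC and fell 1.30-fold (log2 fold change -0.38, SE 0.069). Dpf1 to Dpf2 counts stood at a log2 ratio of -2.51 ± 0.21 in EpiLC and -1.73 ± 0.36 in ESC, a difference of -0.78, without overlap (exact permutation p = 0.1). Ss18, the gene fused to SSX in human synovial sarcoma, had 157, 152 and 156 CPM in EpiLC against 133, 138 and 141 CPM in ESC and rose 1.13-fold (log2 fold change 0.17 with an SE of 0.057, edgeR adjusted p = 0.0258, 0.00361 to 0.342 across alternatives). That call was lost without any 1 of the 5 libraries other than ESC replicate 3, and also with no filter on low counts or with the replicate number as a block (adjusted p = 0.0677 by edgeR). The log2 count ratio of Ss18 to Ss18l1 was 4.18 ± 0.16 in EpiLC and 3.15 ± 0.18 in ESC, a difference of 1.03, with no overlap.

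The BCL7 subunits, small accessory proteins of BAF, shifted from Bcl7b toward Bcl7a. Bcl7a had 30.8, 30.9 and 32.8 CPM in EpiLC against 20.6, 21.9 and 21.5 CPM in ESC and rose 1.48-fold (log2 fold change 0.56 with an SE of 0.081, edgeR adjusted p = 0.000422). Bcl7b had 9.84, 10.9 and 11.8 CPM in EpiLC against 15.7, 15.9 and 10.9 CPM in ESC and was not called, though without ESC replicate 3 it was called lower, with a log2 fold change of -0.55 (adjusted p = 0.00023 by edgeR). Bcl7c had 18.7, 15.7 and 15.4 CPM in EpiLC against 16.8, 16.8 and 11.4 CPM in ESC and was not called (log2 fold change 0.12, SE 0.17). Bcl7a held 32.8 ± 0.183% in EpiLC and 22.4 ± 4.04% in ESC of the BCL7 transcripts per kilobase, Bcl7b held 44.5 ± 2.92% in EpiLC and 57.4 ± 2.85% in ESC, and Bcl7c held 22.7 ± 2.98% in EpiLC and 20.2 ± 1.19% in ESC. The log2 ratio of Bcl7a to Bcl7c counts was 0.93 ± 0.19 in EpiLC and 0.53 ± 0.33 in ESC, a difference of 0.40, and the states overlapped (exact permutation p = 0.2). Only ESC replicate 3, at 0.91, lay within the EpiLC range of 0.72 to 1.09, with 0.29 and 0.38 in ESC replicates 1 and 2. Without ESC replicate 3 the difference was 0.59.

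In NuRD the MTA scaffolds moved in opposite directions and both deacetylases fell. Of the 8 genes of the NuRD and LSD1 group 2 were higher, 3 lower and 3 uncalled. The called share, 62.5%, was near the 64.6% of all genes tested. The median difference of the group was -0.12 on the log2 scale. Mta1, a scaffold that binds the deacetylases (ENSMUSG00000021144, chromosome 12, 113098278 to 113137206), had 111, 111 and 97.1 CPM in EpiLC replicates 1 to 3, against 43.1, 45.1 and 41.7 CPM in ESC replicates 1 to 3. The groups were far apart, and Mta1 rose 2.46-fold (log2 fold change 1.30 with an SE of 0.078, edgeR adjusted p = 3.40e-06). Mta2 had 210.1, 219.6 and 219 CPM in EpiLC against 310.4, 305 and 308 CPM in ESC and fell 1.42-fold (log2 fold change -0.51 with an SE of 0.054, edgeR adjusted p = 6.97e-05). Mta3 had 52.0, 65.3 and 62.8 CPM in EpiLC against 58.1, 60.6 and 75.6 CPM in ESC, overlapped between states and was not called (log2 fold change -0.10, SE 0.12, 95% interval -0.39 to 0.18).

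The log2 count ratio of Mta1 to Mta2 was -1.02 ± 0.13 in EpiLC and -2.83 ± 0.067 in ESC, a difference of 1.80, with -0.91, -0.99 and -1.17 in the EpiLC libraries against -2.85, -2.75 and -2.88 in the ESC libraries. Leaving out each library in turn kept the difference between 1.75 and 1.88. The exact permutation p was 0.1 (0.147 adjusted over 22 pairs). Mta1 made up 34.8 ± 2.32% in EpiLC and 13.8 ± 0.714% in ESC of the MTA transcripts per kilobase, Mta2 53.7 ± 1.47% in EpiLC and 74.2 ± 1.11% in ESC and Mta3 11.5 ± 1.20% in EpiLC and 12.0 ± 1.58% in ESC. Mta2 was the most abundant of the family in both states. The summed MTA level was 98.4 ± 2.79 CPM per kb in EpiLC and 101 ± 1.46 CPM per kb in ESC, which overlapped between states.

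The corresponding windows of 250 bases before the RefSeq start are shown for Mta1 (chr12:113098028-113098277, plus strand) and Mta2 (chr19:8941670-8941919, plus strand), with GC boxes in capitals as above. The GENCODE span of Mta2 begins at 8941875, within its window, and that of Mta1 begins just after its window.
Mta1: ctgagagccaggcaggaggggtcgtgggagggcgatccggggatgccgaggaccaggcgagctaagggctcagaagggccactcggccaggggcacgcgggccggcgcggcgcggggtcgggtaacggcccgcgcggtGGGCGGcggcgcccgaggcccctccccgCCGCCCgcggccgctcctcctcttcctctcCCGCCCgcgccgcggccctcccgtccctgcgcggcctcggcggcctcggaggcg
Mta2: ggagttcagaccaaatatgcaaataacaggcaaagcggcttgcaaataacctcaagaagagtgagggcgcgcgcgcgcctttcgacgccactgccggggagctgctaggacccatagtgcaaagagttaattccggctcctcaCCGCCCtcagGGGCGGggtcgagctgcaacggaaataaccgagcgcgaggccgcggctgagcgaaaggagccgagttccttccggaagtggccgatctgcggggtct
The Mta1 window held 39 CpG, a GC content of 80.8% and 3 GC boxes, against 24 CpG, 60.4% GC and 2 GC boxes in the Mta2 window. The Mta2 window also held the ETS core letters CCGGAAG, present in 4 of 36 member windows and 6.91% of all windows. In Mta2 these letters lie after the GENCODE start, inside the annotated gene. Of the other letters searched on both strands, none was in these 4 windows. The CCAAT box was in 6 of the 36 member windows, against 33.9% of all windows. The TATA box, with the letters TATAAA, was in 3 and in 12.4% of all. The E-box, with the letters CACGTG, was in 4 and in 6.02% of all. The CRE, with the letters TGACGTCA, was in 0 and in 1.55% of all.

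Of the deacetylases, Hdac1 had 33.2, 31.9 and 32.2 CPM in EpiLC against 53.6, 54.8 and 40.7 CPM in ESC and fell 1.54-fold (log2 fold change -0.62 with an SE of 0.12, edgeR adjusted p = 0.00199). Hdac2 had 224, 233 and 238 CPM in EpiLC against 291, 292 and 308 CPM in ESC and fell 1.28-fold (log2 fold change -0.36 with an SE of 0.057, edgeR adjusted p = 0.000735). The log2 count ratio of Hdac1 to Hdac2 was -2.75, -2.87 and -2.88 in EpiLC against -2.44, -2.41 and -2.92 in ESC, a difference of -0.24. This ratio overlapped between states through ESC replicate 3 alone (exact permutation p = 0.4). Without that library the difference was -0.41. Per kilobase Hdac2 held 84.6 ± 0.638% in EpiLC and 82.2 ± 2.79% in ESC of the pair. The summed level of both was 61.2 ± 1.38 CPM per kb in EpiLC and 80.8 ± 0.276 CPM per kb in ESC. Chd4, the NuRD ATPase, was at 1056 ± 19.8 CPM in EpiLC and 901 ± 50.1 CPM in ESC and rose 1.17-fold (log2 fold change 0.23 with an SE of 0.063, edgeR adjusted p = 0.0127). Its call was lost without ESC replicate 2, EpiLC replicate 2 or EpiLC replicate 3, and with no filter (adjusted p = 0.000217 to 0.0757 across alternatives). Mbd3, the methyl-binding-domain subunit needed for NuRD assembly in mouse embryonic stem cells, was at 57.7 ± 0.607 CPM in EpiLC and 63.4 ± 9.12 CPM in ESC and was not called. Without ESC replicate 3 it was called lower, with a log2 fold change of -0.26 (adjusted p = 0.000634 by edgeR). Kdm1a, which encodes LSD1, was at 354 ± 4.64 CPM in EpiLC and 382 ± 15.1 CPM in ESC and was not called (log2 fold change -0.11, SE 0.056, 95% interval -0.24 to 0.021).

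Over the 14 families, 15 of 22 paralog ratios did not overlap between the states, and 8 of them shifted by at least 2-fold. The 19 pairs with at least 10 counts of each gene in every library included 14 of those 15. Dpf1 to Dpf3 is among the 8 but rests on 9 counts of Dpf3 in EpiLC and 11 in ESC. Pairs of the same family share genes, so the 8 are not separate shifts. Single genes tested across the genome did not overlap in 70.2% of cases, and the share for ratios of other gene pairs was not computed. Among those 19, after Smarcd1 to Smarcd3 came Smarcd2 to Smarcd3 (1.85), Mta1 to Mta2 (1.80) and Mta1 to Mta3 (1.40). Smaller shifts without overlap were those of Bcl7a to Bcl7b (0.92), Smarcd1 to Smarcd2 (0.59), Bcl7b to Bcl7c (-0.53) and Mta2 to Mta3 (-0.40). Of the 19, the ATPase, scaffold, p300 and CBP, deacetylase, and Bcl7a and Bcl7c pairs overlapped. In the deacetylase pair and in the Bcl7a and Bcl7c pair the overlap came from ESC replicate 3 alone. No pair could pass 0.05, since 0.1 is the smallest p that 3 against 3 libraries give.

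**Figure D3:**
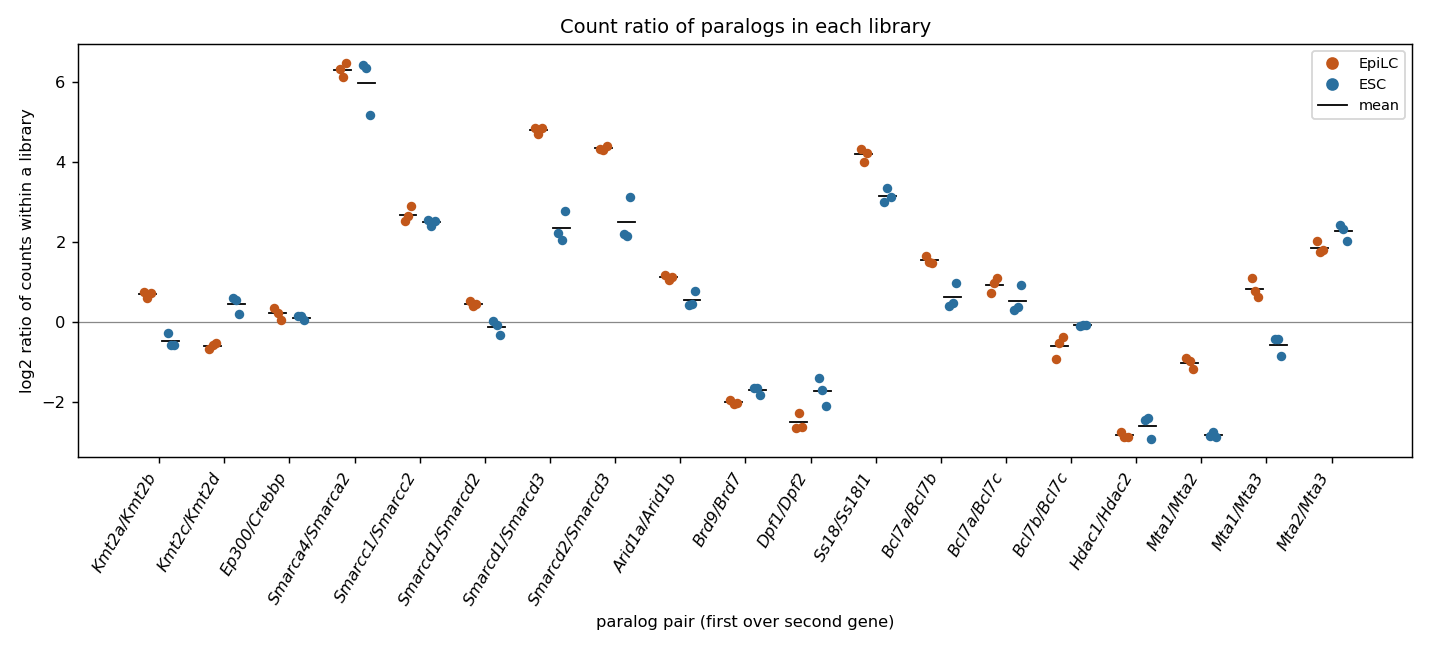
Log2 ratio of the counts of paralogs within each library (y axis) for the 19 pairs with at least 10 counts of each gene in every library (x axis), with EpiLC points left of ESC points and a bar at the mean of 3 libraries. Smarcd1 over Smarcd3 and Mta1 over Mta2 are shifted furthest apart within their families, by 2.44 and 1.80.

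**Figure D4:**
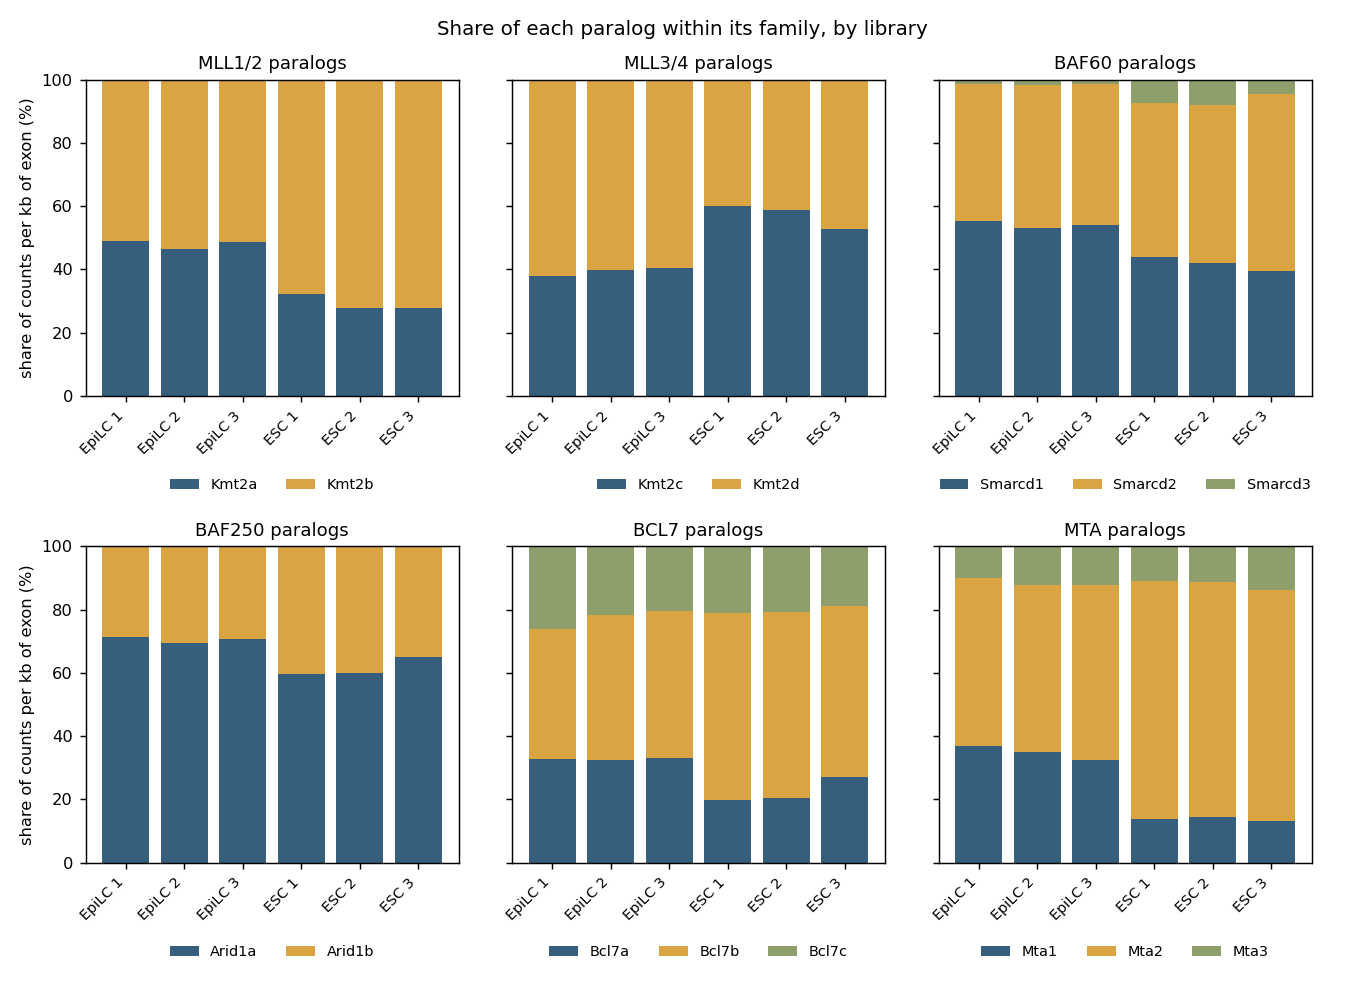
Share of each paralog in the summed counts per kilobase of exon of its family (y axis, percent), a stacked bar for each library, EpiLC left of ESC. The share of Mta1 averages 34.8% in EpiLC and 13.8% in ESC, and that of Kmt2d 60.6% in EpiLC and 42.8% in ESC.

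The order of levels between genes depended on the length used. Per kilobase of all annotated exons, the 4 highest members in EpiLC were Chd4 (132 CPM per kb in EpiLC and 112 in ESC), Smarca4 (69.6 CPM per kb in EpiLC and 69.1 in ESC), Kdm1a (68.4 CPM per kb in EpiLC and 73.7 in ESC) and Mta2 (52.8 CPM per kb in EpiLC and 75.2 in ESC). By that length Smarca4 and Kdm1a did not differ beyond their spread in EpiLC, with SDs of 1.82 and 0.895. Mta2, with an SD of 1.30, did not differ beyond the spread from Hdac2, at 51.8 ± 1.54 CPM per kb in EpiLC. Per kilobase of the longest transcript, a length added after the data were seen, Chd4 was still highest in EpiLC at 158 ± 2.96 CPM per kb. Kdm1a then lay well above Smarca4 there, at 117 ± 1.53 against 70.7 ± 1.84 CPM per kb. Mta2 was at rank 6 in EpiLC by this length, at 69.0 ± 1.70 CPM per kb, with Actl6a above it at 84.8 ± 3.73. In ESC, Actl6a came after Chd4 by all exons, at 76.8 ± 5.56 CPM per kb, and before it by the longest transcript, at 148 ± 10.8 against 135 ± 7.49 CPM per kb, where the intervals of 1 SD overlap. Actl6b and Dpf3 were the lowest members in both states by either length. The large methyltransferases and acetyltransferases lay between 5.06 and 8.94 CPM per kb of all exons in EpiLC and between 3.75 and 9.14 in ESC.

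Exon length went with direction. Of the 17 tested members with 8 kb or more of exon, 12 were higher in EpiLC, against 4 of 25 shorter ones. Among all genes tested 45.1% of those with 8 kb or more were higher, against 29.4% of shorter ones. ESC replicate 3 was the highest ESC library in 15 of these 17 long members and in 8 of the 25 shorter ones. Over all genes it was so in 1330 of 2465 long and 4939 of 12510 shorter genes. In the long members it lay above the mean of the other ESC libraries by a median log2 difference of 0.37. Without it the increases of Kmt2a, Kmt2d, Ep300, Crebbp and Arid1a were larger, at 1.32, 1.53, 1.23, 1.16 and 1.23 on the log2 scale. The part of transcript length or RNA quality in these values was not tested.

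Partners of the listed subunits were counted as well, from lists of other subunits of the same complexes. Among all genes tested 64.6% were called, 32.0% higher and 32.6% lower. Of 15 other COMPASS genes 14 were tested, and 7 were higher, 5 lower and 2 not called (85.7% called). Pagr1a, whose exons lie 98.7% within those of other genes on its strand, had 0 counts in each library. By size of change Setd1b, a methyltransferase of the SET1 complexes, rose 2.70-fold (8.50 ± 1.35 CPM in EpiLC and 3.18 ± 0.385 CPM in ESC), Kdm6b, the UTX relative JMJD3, rose 2.21-fold (24.6 ± 0.641 CPM in EpiLC and 11.5 ± 5.27 CPM in ESC), and Rbbp5 fell 2.20-fold (58.3 ± 2.90 CPM in EpiLC and 128 ± 11.9 CPM in ESC). Rbbp5 belongs to the core that all MLL and SET1 enzymes share. The other 3 genes of that core, named after their values were seen, fell too: Wdr5 had 217, 218 and 223 CPM in EpiLC against 440.3, 431 and 471 CPM in ESC (log2 fold change -1.03, SE 0.059). Ash2l was at 378 ± 26.9 CPM in EpiLC and 676 ± 25.5 CPM in ESC (log2 fold change -0.84, SE 0.070) and Dpy30 at 66.6 ± 1.40 CPM in EpiLC and 115 ± 12.2 CPM in ESC (log2 fold change -0.79, SE 0.087). In these 4 genes no EpiLC library overlapped an ESC library. Of the catalytic MLL genes, Kmt2a and Kmt2d were higher in EpiLC, and Kmt2b and Kmt2c were not called with all libraries. The core genes have 1.15 to 8.97 kb of annotated exon and the MLL genes 9.60 to 20.3 kb. The part of exon length in this contrast was not tested.

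Of 15 other NuRD and CoREST genes 6 were higher, 5 lower and 4 not called (73.3% called, beside 64.6% of all genes tested). Chd3, the paralog of the Chd4 ATPase, was at 97.9 ± 1.13 CPM in EpiLC and 38.1 ± 3.11 CPM in ESC and rose 2.58-fold (log2 fold change 1.37, SE 0.077). Cdk2ap1, a small NuRD subunit, was at 13.8 ± 1.10 CPM in EpiLC and 5.56 ± 1.18 CPM in ESC and rose 2.43-fold. Rcor2, a CoREST scaffold of LSD1, was at 98.0 ± 5.63 CPM in EpiLC and 193 ± 31.5 CPM in ESC and fell 1.97-fold. Of 5 other BAF partners 3 were higher, 1 lower and 1 not called (80.0% called). Bcl11a and Bcl11b, zinc-finger factors found in BAF complexes, rose 26.1-fold and 11.1-fold, to 8.58 ± 0.838 and 19.1 ± 1.72 CPM in EpiLC, against 0.288 ± 0.176 and 1.79 ± 0.575 CPM in ESC, where Bcl11a was near the level of 3 counts. The GLTSCR1 paralogs of ncBAF parted: Bicra was at 6.76 ± 0.667 CPM in EpiLC and 2.71 ± 0.527 CPM in ESC (log2 fold change 1.36). Bicral, named after its values were seen, was at 26.8 ± 1.80 CPM in EpiLC and 68.1 ± 2.37 CPM in ESC (log2 fold change -1.35). Exons of Gm26904 lie opposite 11.3% of the exon length of Bicral.

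**Figure D5:**
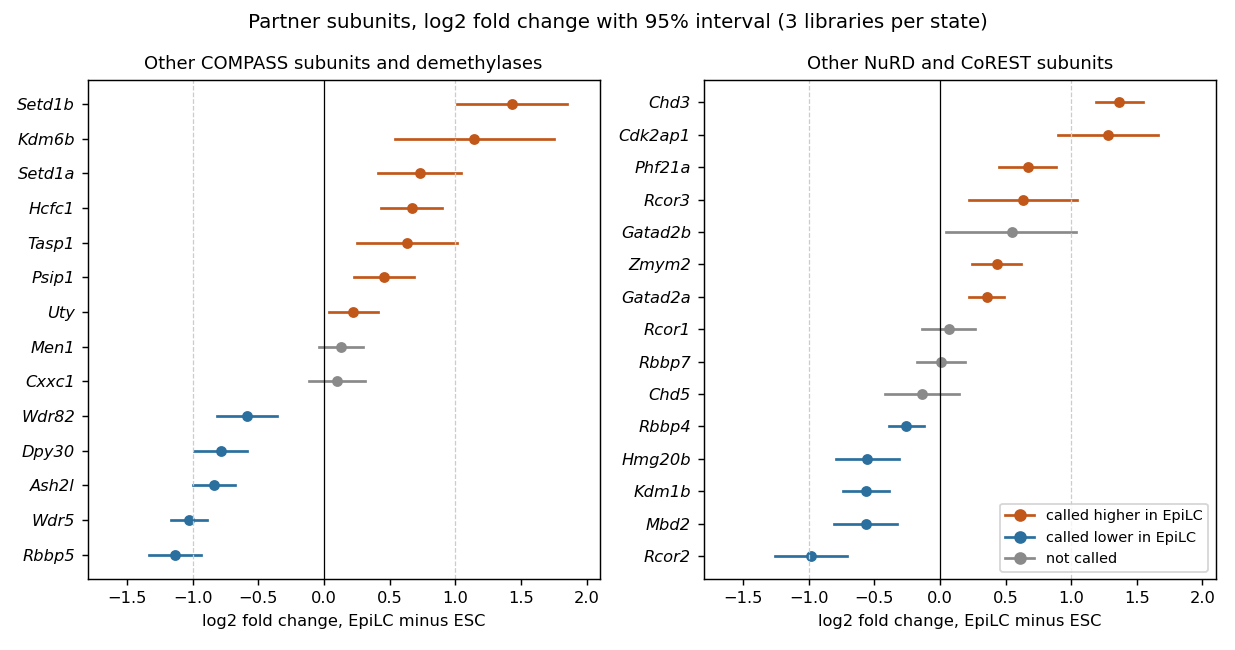
Log2 fold change (EpiLC minus ESC, x axis) of other COMPASS genes (left) and other NuRD and CoREST genes (right), one row per gene, as edgeR estimates with 95% intervals from 3 libraries per state and colour by call. Wdr5, Rbbp5, Ash2l and Dpy30 are on the lower side, and Setd1b and Chd3 lead the higher side.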

How the data were processed

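The authors deposited unnormalised read counts by Ensembl identifier, 6 columns for 6 libraries. Cutadapt, STAR, featureCounts and DESeq2 and the build mm10 are named in the submitters' processing notes, without versions. Annotation release, strand setting and handling of multi-mapped reads are not stated in the labels used here, so genes with overlapping or antisense partners and with near-identical copies are uncertain. RNA was depleted of ribosomal RNA and made into stranded libraries, per the labels' protocols. The 92 spike-in rows, all at 0, were left out.

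The test was edgeR 4.0.16's quasi-likelihood test (legacy option off, TMM scaling, filterByExpr with 10 counts and 15 in total) in R 4.3.3, on all genes, with group as the single term. P-values were two-sided and adjusted by Benjamini-Hochberg over 14996 genes, and a gene was called under 0.05. A positive log2 fold change means higher in EpiLC. Scripts were tested on simulated counts. Paralog ratios are log2 ratios of counts plus 0.5 within a library, compared by exact two-sided permutation tests. Shares and levels between genes use counts per kilobase of the union of annotated exons in GENCODE M21; a length set by rare isoforms lowers a level. A level of 3 counts, the limit a count of 0 allows, was 0.135 to 0.301 CPM, for counting error only.

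All 44 members are named. Values by library are given for members with a called 2-fold difference and for families whose ratio did not overlap. From other lists up to 3 called genes of largest change are named, and others are marked where they appear; genes whose exons overlap a member are given beside it. Members and lists were chosen with earlier results of these data known. Alternatives were DESeq2 1.42.0, limma-voom 3.58.1, other scalings, no filter, a replicate block, leaving out each library, 2 counts added in ratios and the longest transcript as length, for levels added after seeing the data. No protein sequences were used here.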

Additional observations from a re-analysis of the deposited data

How the results depend on the processing

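Of the 28 called members 24 were called under all 13 alternatives, the exceptions being Ncoa6, Smarcc1, Ss18 and Chd4. Of the 14 not called, 6 were called under at least 1 alternative. The number of higher NuRD and LSD1 genes, 2, was 1 with no filter and 1 to 2 when each library was left out. The number of lower genes among other remodellers, 3, was 5 without ESC replicate 3 and 3 to 5 when each library was left out. Signs turned for 8 members, none called with all libraries, and for 1 paralog ratio that overlapped. The log2 fold change of Kmt2b was 0.0019 with library totals, 0.00065 with limma-voom and -0.21 to 0.20 when each library was left out. With no filter it was -0.059 for Smarca4, -0.018 for Brd9 and -0.059 for Phf10. Leaving out each library gave ranges of -0.10 to 0.36 for Kmt2c, -0.028 to 0.033 for Smarca4, -0.59 to 0.060 for Smarca2, -0.049 to 0.034 for Phf10, -0.037 to 0.20 for Bcl7c, -0.19 to 0.0058 for Mta3 and -0.073 to 0.55 for the ratio of Smarca4 to Smarca2. The cause of these turns was not tested.

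Same-numbered libraries did not deviate together (correlations of -0.085, -0.0059 and -0.15), no EpiLC library correlated best with its own number, and the numbers were not taken as pairs. With the replicate block 9234 genes were called (61.6%), and 27 of the 28 members, all but Ss18. Taking the longest transcript as length moved 45 of the 64 paralog shares by more than 1 SD and changed the order of levels between members. Depth limits Actl6b, Dpf3 and other genes near 3 counts.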

Other observations

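Other enhancer coactivators, outside the complexes described above, also moved both ways. Of 20 such genes 8 were higher in EpiLC, 6 lower and 6 not called by edgeR. The called share, 70.0%, was near the 64.6% of all genes tested. Med14, a core subunit of Mediator, was at 105 ± 4.81 CPM in EpiLC and 26.2 ± 2.70 CPM in ESC and rose 4.03-fold (log2 fold change 2.01 with an SE of 0.090, edgeR adjusted p = 7.49e-07). Kat6b, the acetyltransferase MORF, was at 49.9 ± 2.80 CPM in EpiLC and 296 ± 1.21 CPM in ESC and fell 5.94-fold (log2 fold change -2.57 with an SE of 0.066, edgeR adjusted p = 6.38e-08). Kat2b, the acetyltransferase PCAF, was at 34.3 ± 4.79 CPM in EpiLC and 123 ± 6.80 CPM in ESC and fell 3.59-fold (log2 fold change -1.84 with an SE of 0.11, edgeR adjusted p = 2.68e-06).

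Of 17 other remodeller genes 6 were higher, 3 lower and 8 not called by edgeR (52.9% called, beside 64.6% of all genes tested). Chd9 was at 384 ± 17.4 CPM in EpiLC and 117 ± 35.9 CPM in ESC and rose 3.30-fold (log2 fold change 1.72 with an SE of 0.19, edgeR adjusted p = 7.93e-05). Chd7, mutated in human CHARGE syndrome, was at 219 ± 4.52 CPM in EpiLC and 76.4 ± 13.9 CPM in ESC and rose 2.88-fold (log2 fold change 1.52 with an SE of 0.12, edgeR adjusted p = 1.26e-05). Chd2 was at 106 ± 2.17 CPM in EpiLC and 200.2 ± 8.62 CPM in ESC and fell 1.89-fold (log2 fold change -0.91 with an SE of 0.061, edgeR adjusted p = 5.27e-06), with 18.4% of its exon length shared with other genes on its strand. Of 7 primitive endoderm markers 5 were tested, with 2 higher, 2 lower and 1 not called. Of 7 fibroblast markers 5 were tested, with 3 higher, 1 lower and 1 not called. In each of these marker lists 80.0% of the tested genes were called, beside 64.6% of all genes tested.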
